A study of Mus musculus with 21 samples.

Results

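The caudal genes Cdx1, Cdx2 and Cdx4 were the members, taken as every row of the deposited gene abundance tables whose gene name is one of these 3 symbols. They are 3 of 32285 genes in the time course tables and 3 of 25239 genes in the tables of a separate Cyp26a1 set. Polyadenylated RNA of mouse embryonic stem cells (ESCs) was sequenced from 21 libraries in 7 groups of 3, and the labels name no cell line beyond ESC and no knockout clone. In the time course, all cells were wild type and came from a culture with serum, LIF, 1 µM of the MEK inhibitor PD0325901 and 3 µM of CHIR99021, which inhibits GSK3 and so activates WNT signalling; these inhibitors together are called 2i. Group ESC_0h was taken from that culture at 0 h, noRA_12h and noRA_24h were taken 12 h and 24 h after LIF and 2i were removed, and RA_12h and RA_24h were given 2 µM retinoic acid (RA) for 12 h and 24 h. In the Cyp26a1 set, wild type cells (Cyp26a1_WT) and Cyp26a1 knockout cells (Cyp26a1_KO) both lost LIF and 2i and received 2 µM RA for 24 h.

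The Cdx proteins are homeodomain transcription factors of the ParaHox family that pattern the caudal part of the mouse embryo, in large part by activating Hox genes. Cdx1 is known as a direct target of both WNT and RA signalling in the mouse embryo. Cdx2 is best known as the factor that specifies trophectoderm in the blastocyst and later the intestine. Cdx4, which is X-linked, acts with both in the tail bud and in early blood formation and is known as a WNT target. WNT signals reach target genes through beta-catenin and TCF/LEF factors, and RA through RAR and RXR receptors bound to DNA.

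Removing LIF and 2i takes away CHIR99021, PD0325901 and LIF at once, so the loss of WNT activation cannot be told apart from the loss of the other 2 agents. Whether the time course cells given RA also lost LIF and 2i is not stated in the labels. Axin2, a feedback gene of the WNT pathway, stood at 59.1 ± 3.53 TPM in ESC_0h, 15.6 ± 1.10 in noRA_12h and 11.7 ± 0.113 in RA_12h (SD, n = 3). TPM is a level scaled for gene length and library size. Axin2 was thus no higher with RA than after withdrawal. ESC markers (Pou5f1, Nanog, Sox2 and 6 others, 9 of 9 at or above 1 TPM on average in every group) summed to 7717 to 10210 TPM in the time course. Feeder fibroblast markers (7 genes) summed to at most 18.1 TPM there. Libraries held 2.72 to 3.91 aligned gigabases. Libraries noRA_12h 1, RA_24h 2 and Cyp26a1_KO 3 lay farthest from their groups on the main component of the spread within groups. The tests of Cdx1 and Cdx2 were repeated without each library in turn. Some counts are also given without RA_24h 2 or Cyp26a1_KO 3, but not every result is.

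Cdx1 (ENSMUSG00000024619) lies on the minus strand of mm10 chromosome 18, from 61018862 to 61036199, with 3 exons and 1750 exonic bases in GENCODE M21. In ESC_0h it stood at 69.4, 63.3 and 60.8 TPM. The noRA_12h libraries had 2.96, 3.54 and 4.48 TPM of it, and the noRA_24h libraries 0.718, 0.714 and 0.639 TPM. With RA it stood at 104, 107 and 99.1 TPM at 12 h and at 103, 84.0 and 104 TPM at 24 h. Cdx1 was therefore high in 2i, nearly gone a day after withdrawal, and highest with RA, and no library of ESC_0h, noRA_12h, noRA_24h or the RA groups overlapped one from a neighbouring level except between the 2 RA times.

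**Figure D1:**
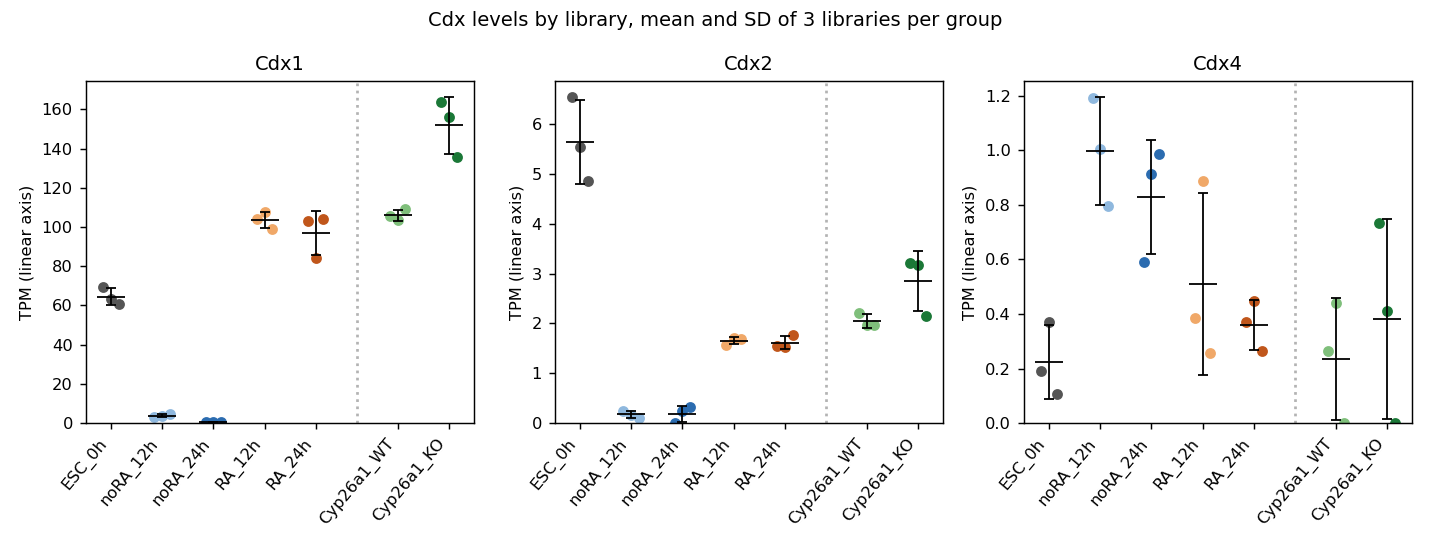
Level of Cdx1, Cdx2 and Cdx4 (TPM, linear vertical axes of different range) in each library of the 7 groups, with the time course left and the Cyp26a1 set right of the dotted line. Points are libraries, and bars are the mean ± SD of 3. Cdx1 is at 99.1 to 107 TPM in RA_12h against 60.8 to 69.4 in ESC_0h, while Cdx2 is at 1.57 to 1.70 against 4.86 to 6.54 TPM and Cdx4 never reaches 1.2 TPM.

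Changes were tested with limma on log2(TPM + 1) of every gene that reached 1 TPM in 3 or more libraries of its set, and called at a Benjamini-Hochberg adjusted p below 0.05. Cdx1 and Cdx2 passed this filter in both sets, and Cdx4 passed in neither. In the time course Cdx1 passed through ESC_0h, noRA_12h and the RA libraries, and Cdx2 only through ESC_0h and the RA libraries. Cdx2 thus had to be lower in withdrawn cells, and the direction of its changes against them is a description. Withdrawal lowered Cdx1 17.6-fold in mean TPM by 12 h and 93.4-fold by 24 h. On the log2(TPM + 1) scale it fell by 3.82 (SE 0.12, adjusted p = 3.37e-11) and by 5.27 (SE 0.12, adjusted p = 1.61e-12). Among 13948 genes tested, Cdx1 ranked 6 from the lowest at 12 h and 3 from the lowest at 24 h. Lower calls made up 20.4% of the genes tested at 12 h and 26.5% at 24 h. The fall went on between the 2 times without RA (log2 change -1.45, SE 0.12, adjusted p = 1.11e-06), where 22.6% of genes were called lower.

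RA held Cdx1 above the withdrawn cells 28.3-fold at 12 h and 140-fold at 24 h in mean TPM. The changes in log2(TPM + 1) were 4.50 (SE 0.12, adjusted p = 4.83e-11) and 5.85 (SE 0.12, adjusted p = 1.28e-12), ranks 4 and 3 from the highest. Higher calls made up 10.2% of genes at 12 h and 22.8% at 24 h. Without RA_24h library 2, the number of genes called in either direction at 24 h went from 4915 (35.2% of those tested) to 7428. Cdx1 with RA was also above its level in 2i. It was 1.61-fold higher at 12 h (log2 change 0.68, 95% confidence interval 0.43 to 0.93, adjusted p = 0.000291) and 1.50-fold higher at 24 h (0.58, interval 0.33 to 0.83, adjusted p = 0.000908), beside 27.4% and 28.5% of genes called higher. The comparisons with ESC_0h and with withdrawn cells share libraries and are not independent of each other.

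The RA effect on Cdx1 grew by 1.35 between 12 h and 24 h (SE 0.16, adjusted p = 0.000252, 4.17% of genes called higher). The number of genes called for this difference was 955, of which 60.8% were higher; it was 599, with 46.6% higher, after quantile normalization and 1545 without RA_24h library 2. The level of Cdx1 with RA did not change past the threshold (log2 change 24 h against 12 h -0.10, interval -0.35 to 0.15, adjusted p = 0.516, with 34.6% of genes called), whereas the level without RA fell 5.30-fold in mean TPM. Other genes that answer to RA went on climbing with RA over the same interval. Cyp26a1, the RA-degrading enzyme, went from 121 ± 1.70 to 313 ± 28.7 TPM, Hoxa5 from 24.6 ± 0.791 to 78.9 ± 5.21 TPM and the endoderm factor Gata6 from 17.9 ± 1.88 to 64.6 ± 5.87 TPM (SD, n = 3), none with overlap.

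**Figure D2:**
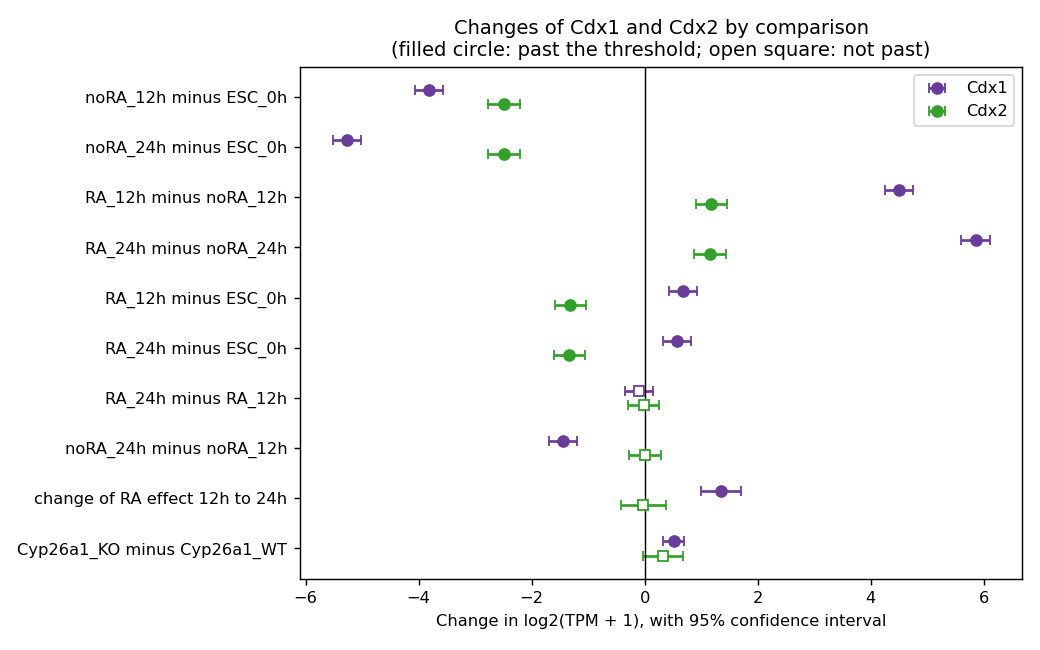
Change of Cdx1 (purple) and Cdx2 (green) in log2(TPM + 1) for each comparison, with 95% confidence intervals from limma. Filled circles are past the threshold and open squares are not. Both genes fall on withdrawal and rise with RA, but against ESC_0h Cdx1 lies at 0.68 and 0.58 and Cdx2 at -1.32 and -1.34.

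Cdx2 (ENSMUSG00000029646) lies on the minus strand of chromosome 5, from 147300805 to 147307270 in the time course tables, with 3 exons and 2261 exonic bases. In ESC_0h it stood at 6.54, 5.54 and 4.86 TPM. The noRA_12h libraries had 0.253, 0.164 and 0.111 TPM of it, and the noRA_24h libraries 0, 0.239 and 0.319 TPM. With RA it stood at 1.57, 1.70 and 1.69 TPM at 12 h and at 1.56, 1.53 and 1.77 TPM at 24 h. Cdx2 had the same 3 tiers as Cdx1 in another order, with 2i highest, RA between and withdrawal lowest, and no library of one tier overlapped another. In coverage, the withdrawn libraries held at most 7.28 read lengths of Cdx2 (coverage times exonic bases over 150), against 105 to 133 in ESC_0h, so the low tier is known only roughly.

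Withdrawal lowered Cdx2 by 2.49 on the log2(TPM + 1) scale at 12 h (SE 0.13, adjusted p = 4.93e-09) and by 2.49 at 24 h (SE 0.13, adjusted p = 3.65e-09), which is 32.1-fold and 30.3-fold in mean TPM. Between the 2 withdrawal times, where 39.6% of genes were called, the change was 0.00 (interval -0.27 to 0.28, adjusted p = 0.981). Cdx2 was already at 0.176 TPM on average in noRA_12h, so a further fall of the size seen for Cdx1 could not have shown. RA raised Cdx2 by 1.18 at 12 h (SE 0.13, adjusted p = 2.36e-05) and by 1.15 at 24 h (SE 0.13, adjusted p = 1.36e-05), 9.40-fold and 8.69-fold in mean TPM. By size these ranked 223 and 458 from the highest. The RA effect on Cdx2 did not differ past the threshold between the times (-0.02, interval -0.42 to 0.37, adjusted p = 0.966, with 6.85% of genes called), nor did its level with RA (-0.02, interval -0.30 to 0.26).

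Against ESC_0h, Cdx2 with RA reached only 29.3% of its level at 12 h (log2 change -1.32, SE 0.13, adjusted p = 1.98e-06) and 28.6% at 24 h (-1.34, SE 0.13, adjusted p = 1.41e-06), beside 28.3% and 22.1% of genes called lower. Cdx1 and Cdx2 thus lay on opposite sides of their 2i level. The ratio of Cdx1 to Cdx2 shows the same contrast within libraries. It was 10.6, 11.4 and 12.5 in ESC_0h, 66.4, 63.2 and 58.7 in RA_12h and 66.2, 55.0 and 58.9 in RA_24h. The log2 ratio was higher than in ESC_0h by 2.45 at 12 h and 2.38 at 24 h, with no overlap (two-sided exact permutation p = 0.1 in each, the smallest that 3 against 3 can give). In noRA_12h the ratio spread from 11.7 to 40.4, and in noRA_24h it was 2.99 and 2.00 in the 2 libraries where Cdx2 was above 0.

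The windows around the start sites of Cdx2 and Cdx4 are shown because these genes answered in opposite ways to withdrawal; they run from 250 bases before to 50 bases after the RefSeq start on GRCm38.p6, and 2 of the 3 members had one. Capitals mark matches on either strand to the TCF/LEF core CTTTGA, to the RA receptor core AGGTCA or its variants, which were the form AGTTCA, the form GGGTCA and the form GGTTCA, to the DR5 element (a pair of such cores 5 bases apart, which holds the core by construction) or to the CDX core TTTATG.
Cdx2, chr5:147307200-147307499, minus strand: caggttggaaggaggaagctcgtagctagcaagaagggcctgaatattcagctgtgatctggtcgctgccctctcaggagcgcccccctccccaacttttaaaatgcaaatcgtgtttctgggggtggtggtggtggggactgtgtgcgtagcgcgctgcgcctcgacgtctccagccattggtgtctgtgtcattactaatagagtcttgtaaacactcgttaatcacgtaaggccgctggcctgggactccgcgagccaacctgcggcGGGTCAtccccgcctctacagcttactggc
Cdx4, chrX:103321148-103321447, plus strand: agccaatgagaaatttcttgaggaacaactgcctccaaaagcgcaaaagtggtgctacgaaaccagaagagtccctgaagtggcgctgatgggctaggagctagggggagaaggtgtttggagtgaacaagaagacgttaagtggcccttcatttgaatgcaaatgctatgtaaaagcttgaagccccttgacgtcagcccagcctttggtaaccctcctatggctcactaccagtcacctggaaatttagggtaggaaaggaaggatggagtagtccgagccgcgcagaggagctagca
The Cdx2 window held 1 receptor core, starting 20 bases after the start site, and the Cdx4 window held no match. A receptor core was in 43.7% of 32851 windows of this length, the TCF/LEF core in 16.0%, the CDX core in 11.9% and a DR5 element in 0.0974%. For contrast, 2 RA targets of the list used here are shown, which were picked by name. The other targets of the list were not looked up, and Cdx1 had no window. Each of the 2 held a DR5 element in the same window, with the cores in capitals.
Cyp26a1, chr19:37697776-37697792, plus strand: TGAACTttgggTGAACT
Rarb, chr14:16575513-16575529, minus strand: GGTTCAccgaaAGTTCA
A match is a run of letters, and its use in these cells was not tested.

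Cdx4 (ENSMUSG00000031326) lies on the plus strand of chromosome X, from 103321398 to 103330592 in the time course tables, with 3 exons and 1963 exonic bases. In ESC_0h it stood at 0.192, 0.372 and 0.107 TPM. The noRA_12h libraries had 1.19, 1.00 and 0.796 TPM of it, and the noRA_24h libraries 0.592, 0.911 and 0.985 TPM. With RA it stood at 0.386, 0.886 and 0.258 TPM at 12 h and at 0.372, 0.446 and 0.264 TPM at 24 h. Every withdrawn library was above every ESC_0h library, which is the reverse of Cdx1 and Cdx2, while the groups at 12 h with and without RA overlapped. Each library held only 2.00 to 22.3 read lengths of Cdx4, so these levels rest on few reads. With no filter on low values, limma called Cdx4 higher than in ESC_0h at 12 h (log2 change 0.71, adjusted p = 0.00625) and at 24 h without RA (0.58, adjusted p = 0.0158). In the same fit it was not called with RA against no RA at 12 h (-0.42, adjusted p = 0.169) or at 24 h (-0.42, adjusted p = 0.0949), although the 24 h groups did not overlap.

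The summed level of the 3 genes was 70.4 ± 5.26 TPM in ESC_0h, 4.83 ± 0.505 in noRA_12h and 1.71 ± 0.345 in noRA_24h (SD, n = 3). With RA it was 106 ± 4.55 TPM at 12 h and 99.0 ± 11.3 at 24 h. Cdx1 made up nearly all of the sum where the sum was high. Its mean share was 91.7% in ESC_0h and 98.0% in both RA groups, against 75.2% in noRA_12h and 42.0% in noRA_24h. Cdx2 held 7.99% in ESC_0h and 1.56% and 1.64% with RA at 12 h and 24 h. Cdx4 held 21.0% in noRA_12h and 48.2% in noRA_24h, where it was above Cdx1 in libraries 2 and 3 and below it in library 1. Expression of the family in withdrawn cells was thus low in total and divided among its members, with Cdx2 and Cdx4 resting on few reads.

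**Figure D3:**
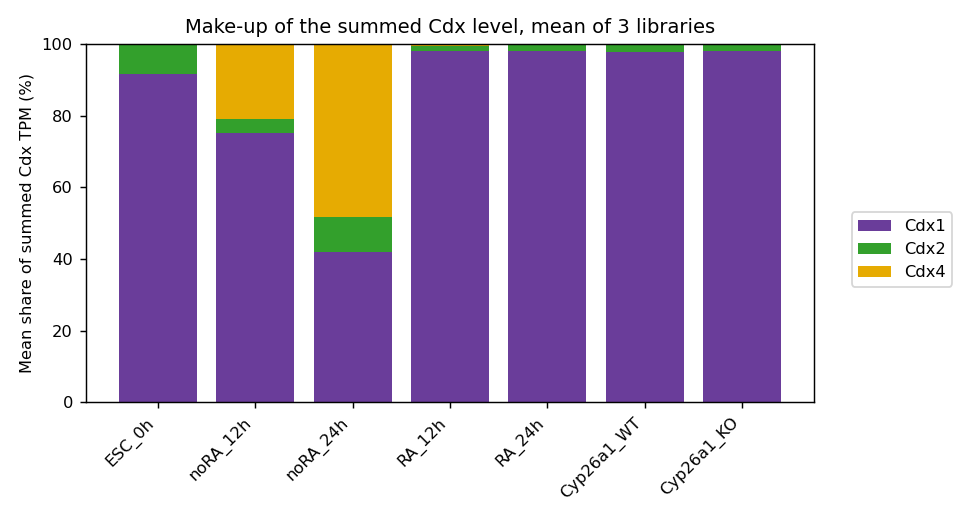
Mean share of each gene in the summed Cdx level (percent of summed TPM, mean of 3 libraries) by group. Cdx1 (purple) fills 91.7% of the bar in ESC_0h and 98.0% with RA, and Cdx4 (yellow) fills 48.2% in noRA_24h, where the summed level is only 1.71 TPM.

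Over the 15 time course libraries, Pearson r of log2(TPM + 1) was 0.778 between Cdx1 and Cdx2, -0.736 between Cdx1 and Cdx4 and -0.788 between Cdx2 and Cdx4, given as a description of libraries that share group and culture. The tested gene with the highest r to Cdx1 was Pdgfrb (0.985), followed by Cidea (0.985), Dhx32, Nxn and C2cd2l (0.971). By the distance between the 5 group means, Tinagl1, Cidea, Grasp and Spsb1 were among the nearest to Cdx1. The gene most like Cdx2 by both measures was Hs3st3b1, a heparan sulfate sulfotransferase (r = 0.980), and Elf3, an epithelial ETS factor, followed by r (0.976). Elf3 stood at 325 TPM in ESC_0h, 45.2 in noRA_24h and 93.0 in RA_24h, the same order of tiers as Cdx2 at a far higher level. For Cdx4 the highest r was with P2rx7, an ATP-gated channel (0.876), and the nearest group means were those of Scgb3a1.

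Pdgfrb, the receptor for platelet-derived growth factor B, is also the gene beside Cdx1. It starts 9.0 kb from the start of Cdx1, on the other strand, and reads away from it. It stood at 6.81 ± 0.204 TPM in ESC_0h, 2.84 ± 0.399 in noRA_12h, 6.57 ± 0.382 in RA_12h, 2.07 ± 0.0542 in noRA_24h and 7.20 ± 0.619 in RA_24h (SD, n = 3). Its level in RA_12h overlapped that in ESC_0h, whereas that of Cdx1 was higher in RA_12h. Pdgfrb fell by 1.35 on withdrawal at 24 h (SE 0.10, adjusted p = 1.50e-07) and rose with RA by 0.98 at 12 h (SE 0.10, adjusted p = 1.46e-05) and 1.41 at 24 h (SE 0.10, adjusted p = 2.22e-07). Slc6a7, a proline transporter gene that starts 22.0 kb away, fell by 1.40 on withdrawal at 24 h (adjusted p = 3.63e-06). It was lower still with RA at 24 h (-0.44, SE 0.15, adjusted p = 0.0342). Both of these levels were near the floor, at 0.552 ± 0.133 TPM in noRA_24h and 0.152 ± 0.172 in RA_24h (SD, n = 3). Camk2a, which encodes a calcium-dependent kinase and starts 110.6 kb away, fell by 1.03 on withdrawal at 24 h and rose by 1.15 with RA at 24 h (adjusted p = 2.05e-05) but not past the threshold at 12 h (0.29, adjusted p = 0.173).

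**Figure D4:**
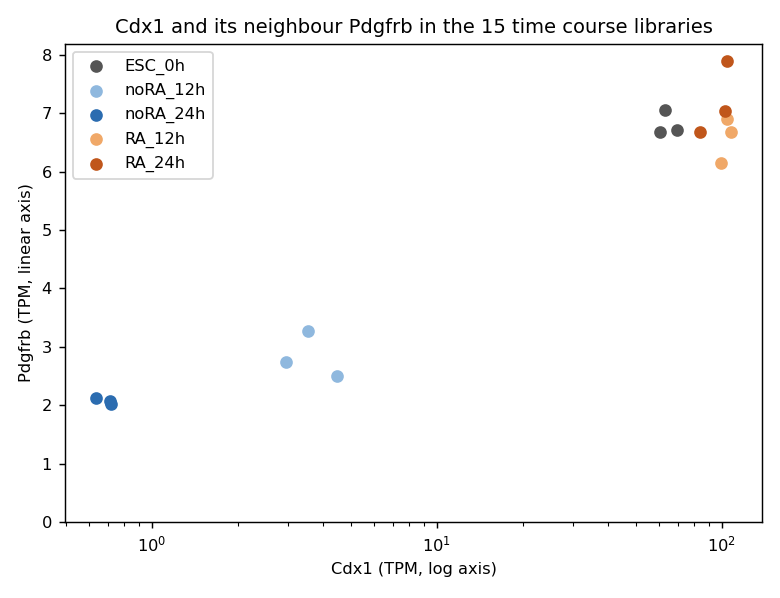
Level of Pdgfrb (TPM, linear axis) against that of Cdx1 (TPM, log axis) in the 15 time course libraries, coloured by group. The withdrawn libraries lie at 2.02 to 3.27 TPM of Pdgfrb and at most 4.48 TPM of Cdx1, and the ESC_0h and RA libraries at 6.15 to 7.89 TPM of Pdgfrb.

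Near Cdx2, the ParaHox gene Gsx1 starts 118.6 kb away and moved the other way on withdrawal. Gsx1 was at 0.0417 ± 0.0722 TPM in ESC_0h, 1.36 ± 0.133 in noRA_12h and 3.07 ± 0.274 in RA_12h (SD, n = 3). It rose with RA by 0.79 at 12 h (SE 0.13, adjusted p = 0.000639) and by 0.61 at 24 h (adjusted p = 0.00218). Pdx1, the third gene of that ParaHox cluster and a pancreas and duodenum factor, starts 37.3 kb from Cdx2 and stayed below the filter, at 0.755 ± 0.117 TPM in RA_24h. Near Cdx4, Tsx starts 93.1 kb away and was 10.5 ± 1.59 TPM in noRA_24h against 2.19 ± 0.561 in ESC_0h (log2 change 1.86, SE 0.20, adjusted p = 5.37e-06). Tsx was 1.08 lower with RA at 24 h (adjusted p = 0.00109), so its group order at 24 h was like that of Cdx4.

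Genes of the WNT pathway were read beside the members. Of 13 WNT targets and feedback genes, 12 were tested, and 9 fell and 2 rose by 24 h of withdrawal (26.5% of all genes called lower, 25.4% higher; list median -0.68 against 0.03 over all genes). Of the 9, Sp5 and Rnf43 reached 1 TPM only in ESC_0h and so had to be lower elsewhere, and the count is a description. T, the mesoderm factor Brachyury, fell by 3.07 (adjusted p = 1.43e-09) and Axin2 by 2.07 (adjusted p = 1.11e-09), while Lef1 rose by 2.04. With RA against no RA at 24 h, 4 were higher and 3 lower (22.8% and 12.5% of all genes). Of the 4, Dkk1 and Sp8 reached 1 TPM only in RA_24h and so had to be higher there, and this count is a description too. Without RA_24h library 2 they no longer passed the filter, and only 2 genes were higher. The WNT inhibitor gene Dkk1 rose by 2.32 (adjusted p = 5.03e-09) and Sp8, which encodes a zinc finger factor, by 1.49 (adjusted p = 1.49e-07), while the cyclin gene Ccnd1 fell by 2.05 (adjusted p = 6.16e-10). Axin2 changed by -0.20 (SE 0.09, adjusted p = 0.122), not past the threshold. Sp5 stood at 49.2 ± 6.53 TPM in ESC_0h, 0.161 ± 0.167 in noRA_12h and 0.138 ± 0.0870 in RA_12h (SD, n = 3). The WNT list thus moved in both directions with RA at 24 h. T rose with RA by 1.46 at 12 h (SE 0.14, adjusted p = 9.25e-06) and 1.03 at 24 h. At 3.74 ± 0.510 TPM in RA_12h against 8.39 ± 0.741 in ESC_0h, it was below its 2i level, as Cdx2 was. Of the 6 TCF and beta-catenin factors, 2 were lower with RA at 24 h, with Lef1 lower by 3.20 (adjusted p = 8.91e-10).

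RA targets and Hox genes were mostly higher with RA. List members that passed the filter only through the RA libraries had to differ, so these counts are descriptions. All 13 RA targets were called higher at 24 h, and 10 of 13 at 12 h, beside 22.8% and 10.2% of all genes; without RA_24h library 2, 12 were higher at 24 h. The median change at 24 h was 3.25, against 0.02 over all genes tested, and Cdx1 at 5.85 was above the median. Of the RA receptor genes, 3 of 6 were higher and 1 lower at 24 h, where 12.5% of all genes were lower. Anterior Hox genes (groups 1 to 3) were higher in 6 of 6 tested at both times. Central Hox genes (groups 4 to 9), which include the best known Cdx targets, were higher in 11 of 15 tested at 12 h and in 15 of 15 at 24 h, with a median of 4.10. Hoxa5 was up by 4.50 at 12 h (SE 0.12, adjusted p = 7.44e-11) and by 5.97 at 24 h (SE 0.12, adjusted p = 1.62e-12), and Hoxb5 by 5.20 at 24 h. Posterior Hox genes (groups 10 to 13) were higher in 5 of 8 at 24 h, with Hoxa10 up by 3.65.

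The Hox genes of withdrawn cells are listed here because Cdx1 and Cdx2 fell there. Of 15 central Hox genes tested, 7 were lower and none higher after 24 h without LIF and 2i, and of 8 posterior Hox genes 6 were lower, beside 26.5% of all genes lower and 25.4% higher. Hoxc9 among the central and Hoxc11 among the posterior genes reached 1 TPM only in ESC_0h and so had to be lower, and these counts are descriptions. Hoxc12 fell by 3.08 (adjusted p = 4.99e-09) and Hoxc10 by 2.35 (adjusted p = 5.80e-08). Hoxc12 was not past the threshold with RA at 24 h (0.12, SE 0.16, adjusted p = 0.580). Of 8 caudal progenitor genes tested, 3 fell and 2 rose on withdrawal at 24 h, near the shares over all genes, with Nkx1-2, a gene of axial progenitors, down by 4.24 (adjusted p = 5.23e-11). With RA at 24 h 4 were higher and 2 lower, beside 22.8% and 12.5% of all genes. Of the 4, Wnt8a and Wnt3a reached 1 TPM only in RA libraries, Wnt3a only at 12 h. Wnt8a thus had to be higher with RA, and this count is also a description. Wnt8a, a WNT ligand of the primitive streak, rose by 1.69 at 12 h (SE 0.17, adjusted p = 1.34e-05) and 1.81 at 24 h, and Dll1, a Notch ligand, was lower by 1.28 (adjusted p = 1.13e-05).

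Markers of the cell types in which Cdx2 acts were counted in the same way. Of 10 trophectoderm markers tested, 8 were higher with RA at 24 h, beside 22.8% of all genes, with Fgfr2 up by 2.59 and Tfap2c by 1.79, and the 11 listed genes summed to 71.5 to 73.1 TPM in noRA_24h, 130 to 156 in RA_24h and 130 to 140 in ESC_0h. Of these markers Elf5 was at 0 to 0.661 TPM in RA_24h, and their part in the level of Cdx2 was not tested. Of 7 intestinal CDX genes tested, 2 were higher and 1 lower with RA at 24 h (1 higher under median-of-ratios scaling and under quantile normalization), near the 22.8% and 12.5% of all genes. Fabp2, Sis, Isx and Fabp1 were at 0 in every RA_24h library. Primitive endoderm markers were called higher in 9 of 9 with RA at 24 h, beside 22.8% of all genes. Dab2, Pdgfra and Foxa2 reached 1 TPM only in RA_24h, and Sox17 and Sox7 only in RA libraries. These had to be higher, so the count is a description. Without RA_24h library 2, Dab2, Pdgfra and Foxa2 no longer passed the filter, and 6 markers were called higher. The summed level of the 9 primitive endoderm markers was 74.0 to 77.3 TPM in noRA_12h and 92.1 to 99.0 in RA_12h. At 24 h it was 42.7 to 49.3 TPM in noRA_24h and 218 to 250 in RA_24h. Their part in the level of Cdx1 was not tested. In bulk RNA, more cells that express a gene and more RNA per cell cannot be told apart.

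**Figure D5:**
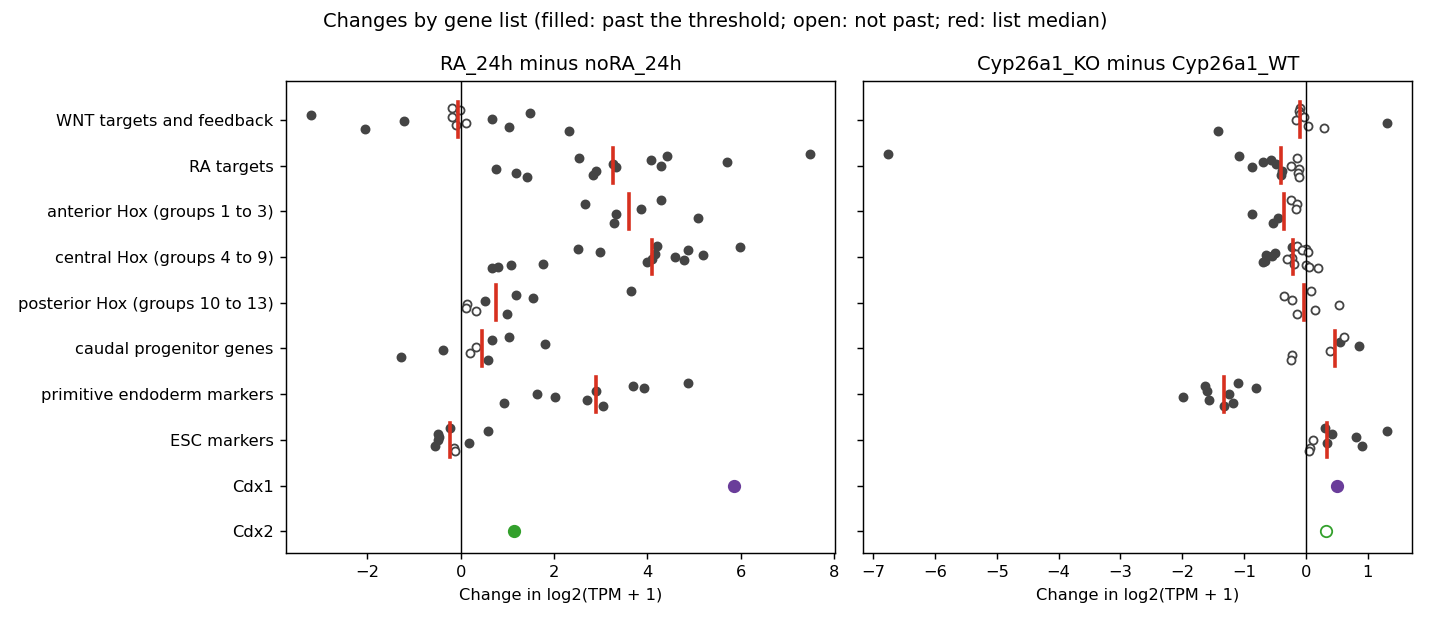
Change in log2(TPM + 1) of each tested member of 8 gene lists, and of Cdx1 and Cdx2, for RA against no RA at 24 h (left) and for Cyp26a1 knockout against wild type (right). Filled points are past the threshold, open points are not, and red lines are list medians. Cdx1 lies at 5.85 on the left, beyond the medians of RA targets (3.25) and central Hox genes (4.10), and at 0.51 on the right, where those medians are -0.40 and -0.20.

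The Cyp26a1 set asks what loss of the RA-degrading enzyme does to the RA response. Cyp26a1 itself stood at 585 to 606 TPM in wild type and at 4.03 to 4.93 TPM in knockout libraries. Cdx1 stood at 106, 104 and 109 TPM in Cyp26a1_WT and at 164, 156 and 136 TPM in Cyp26a1_KO, with no overlap. It was 1.43-fold higher in the knockout (log2 change 0.51, SE 0.08, interval 0.32 to 0.69, adjusted p = 0.0124), where 9.99% of 12848 genes were called and 3.34% were called higher. The call ended without any of the 3 wild type libraries (adjusted p = 0.0735, 0.0701 and 0.0588 without libraries 1, 2 and 3) and without knockout library 2 (0.0560), with the change between 0.45 and 0.59. Genes called ranged from 293 to 3160 when 1 library was left out, against 1284 with all, the highest without knockout library 3. Of those called with all libraries 429 were higher and 855 lower, against 522 and 522 under median-of-ratios scaling and 395 and 477 under quantile normalization.

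Cdx2 stood at 2.21, 1.96 and 1.98 TPM in wild type and at 3.21, 3.18 and 2.15 TPM in knockout cells. Knockout libraries 1 and 2 were above every wild type library and library 3 lay within the wild type range. The change was not past the threshold (log2 change 0.32, interval -0.03 to 0.68, adjusted p = 0.237), but was past it without knockout library 3 (0.46, adjusted p = 0.0394). The ratio of Cdx1 to Cdx2 was 47.7, 52.7 and 55.1 in wild type and 51.0, 49.1 and 63.1 in knockout libraries (difference in log2 ratio 0.06, two-sided exact permutation p = 0.8). Cdx4 stood at 0.265, 0.440 and 0 TPM in wild type and at 0.733, 0.410 and 0 in knockout libraries, with overlap and no fold given.

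The RA targets went the other way from Cdx1 in this comparison. Of 13 tested, 8 were lower in the knockout, Cyp26a1 included, and none higher, with a median of -0.40 against -0.05 over all genes and 6.65% of all genes called lower. Cyp26b1, a second RA-degrading enzyme, fell by 1.08 (adjusted p = 0.000886) and Hoxb1 by 0.87 (adjusted p = 0.00411). Central Hox genes were lower in 6 of 16 tested, in 3 under median-of-ratios scaling and in 2 under quantile normalization, with Hoxb9 lower by 0.66 (adjusted p = 0.00457) and Hoxb5 by 0.65 (adjusted p = 0.00438). Caudal progenitor genes were higher in 2 of 6 tested, Fgf17 by 0.87 (adjusted p = 0.0326) and Wnt8a by 0.55 (adjusted p = 0.0399), beside 3.34% of all genes called higher. Of 9 WNT targets and feedback genes tested, 1 was higher and 1 lower, beside 3.34% and 6.65% of all genes. Notum changed by 1.32 (adjusted p = 0.00598) and the WNT inhibitor gene Dkk1 by -1.42 (adjusted p = 0.00101). Axin2 changed by -0.10 (SE 0.11, adjusted p = 0.668), not past the threshold.

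Cell type markers moved strongly in the same libraries. Primitive endoderm markers were lower in 9 of 9, beside 6.65% of all genes, with Dab2 down by 1.99 and Gata6 by 1.09, and summed to 377 to 405 TPM in wild type and 153 to 160 in knockout cells. ESC markers were higher in 6 of 9 and lower in none, beside 3.34% of all genes higher, with Nanog up by 1.32 (adjusted p = 0.00011), and summed to 6430 to 6701 TPM in wild type and 8182 to 8984 in knockout cells. The part of these shifts in the change of Cdx1 was not tested.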

How the data were processed

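Each library came as 1 gene abundance table. The submitters' processing notes name mm10, HISAT2 and StringTie, with no version. The coverage (signal), FPKM and TPM values were computed by the authors and deposited, per the file headers. Strand is not stated, and in GENCODE M21 no other gene overlaps a member. TPM was the unit used, FPKM an alternative, and coverage served for depth.

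Groups followed the titles. These give replicate numbers but no word on separate cultures, so the p-values cover the spread between these samples only, and that spread may be technical. The tables of the 15 time course and of the 6 Cyp26a1 set libraries list different genes. Each set had its own limma model (version 3.58.1, R 4.3.3, empirical Bayes with an intensity trend) on log2(TPM + 1), for genes that reached 1 TPM in 3 or more libraries, and levels were not tested across sets. With the pseudocount of 1, log2 changes of low genes understate their TPM ratios. The models were tested on simulated data. Benjamini-Hochberg adjustment ran over all 13948 and 12848 genes tested. In the Cyp26a1 set, same-numbered libraries deviated together (r = 0.189 to 0.536), so the numbers may pair them. The main model and the permutation test did not use this pairing. A fit with the replicate number as a block is given among the alternatives. Confidence intervals used t quantiles from scipy 1.17.1, and permutation tests went through every relabelling of the libraries compared.

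The members, 14 lists and tests were chosen with earlier results of these data known. Named genes were the members, their most similar genes, neighbours within 200 kb, up to 4 members per list with the largest change, and Cyp26a1. Genes named beyond this (Axin2, Sp5 and T with RA, Hoxc12 with RA, Gata6 and Axin2 in the knockout) were carried over from another comparison. Rnf43, Hoxc9, Hoxc11, Wnt3a, Pdgfra, Foxa2, Sox17, Sox7, Dab2 with RA and the markers at 0 were named after their values were seen. One gene that the rule names is not reported here. Promoter windows came from RefSeq on GRCm38.p6.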

Additional observations from a re-analysis of the deposited data

Results flagged for a closer look

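The RA effect differed between 12 h and 24 h, by limma's test of the difference itself on log2(TPM + 1), for Cdx1 by 1.35 (SE 0.16, adjusted p = 0.000252). Among the other genes whose RA response at both times was looked up, it also differed for Camk2a by 0.86 (adjusted p = 0.0151), Cyp26a1 by 1.10 (adjusted p = 0.00279), Gata6 by 1.50 (adjusted p = 0.000543) and Hoxa5 by 1.47 (adjusted p = 0.000197). In all of these the effect was larger at 24 h. Cdx2 was not among them (-0.02, adjusted p = 0.966).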

How the results depend on the processing

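Results were recomputed with a smaller pseudocount (0.1), with 2 other filters (none, or a mean TPM of 5 or more), after 2 other scalings (median of ratios, quantile), on FPKM, without the trend, with the replicate number as a block, without each library, and with only the compared groups in the model. The filter at 5 TPM left no Cdx2 value. No called change of Cdx1 or Cdx2 reversed, and 226 of 230 alternatives for Cdx1 and 218 of 219 for Cdx2 kept direction and side of the threshold. The exceptions were in the knockout comparison with 1 library left out, where Cdx1 ranged from 0.45 to 0.59 and Cdx2 from 0.25 to 0.46.

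Of the counts of genes called, 220 of 230 stayed within 1.5 times. Without RA_24h library 2, 7428 genes differed between RA_24h and noRA_24h (3720 to 7428 over all libraries left out). For the change of the RA effect the count was 599 after quantile normalization and 641 to 1545 with a library left out, the highest without RA_24h library 2. In the knockout comparison it was 851 with no filter and 293 to 3160 with a library left out. The cause of these shifts was not tested. With the replicate block, Cdx1 in the knockout had an adjusted p of 0.0125 and Cdx2 of 0.245, and 1162 genes were called. The block changed no call of Cdx1 or Cdx2. In the time course same-numbered libraries did not deviate together (r = -0.837 to 0.415), and the block left 4424 genes called for RA at 24 h. Among lists in the knockout, the block ended the single higher calls among TCF factors and among ParaHox genes. Checks of list counts without the libraries that stood apart were chosen after seeing the data. Depth limits Cdx4 in every library and Cdx2 in withdrawn cells, which rest on few reads.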
